A study of Rattus norvegicus with 6 samples.

Results

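Spp1 encodes osteopontin, and this is an account of that 1 gene among the 34510 rows of a gene count table from the rat median eminence, the floor of the hypothalamus where axons release hormones toward the pituitary. The row was taken by its identifier, ENSRNOG00000043451, and was chosen by its large rise between the control and PEL libraries described here, among genes with many reads. Its difference between the groups is therefore given as a description. Spp1 was part of the fit over all rows, but its call there is not used as a result. The count table holds no gene symbols, and the RefSeq gene table at hand lists no Ensembl identifiers, so the pairing of this identifier with Spp1 was given with the choice of the gene and was not checked here. RNA came from S-D rats, in 3 samples collected 1 day after PEL surgery and in 3 control samples. The labels do not spell out PEL, do not say whether controls had a sham operation, give neither age nor sex, and do not state that each sample was a separate animal. The series title places the work in a study of neurogenesis, structural repair and body fluid balance after hypothalamic injury.

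Osteopontin is a secreted, heavily phosphorylated glycoprotein of the matricellular kind: it sits in the extracellular matrix and acts on cells without being a structural fibre. Its RGD motif binds integrins, it is also a ligand of CD44, and thrombin and matrix metalloproteinases cut it into fragments that bind other integrins. It is best known from bone, and in injured brain it is known as a product of activated microglia and infiltrating macrophages. In bulk tissue, more cells of a type and more RNA per cell cannot be told apart, and the cell types that carried the Spp1 reads were not examined. Receptors, proteases and other integrin ligands of the osteopontin pathway, and markers of phagocytes and other cells, are known by symbol, and their rows were not analysed here.

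The RefSeq promoter table holds 1 entry for Spp1, on chromosome 14 of the GRCr8 assembly. The 250 bases before the transcript start used in that table are shown as the sequence before 1 annotated start of the gene whose RNA level is described; no data here bear on its activity. Capitals mark the letters ACCGCA, a core that Runx factors such as Runx2 bind, and the letters TTTAAA close to the start.

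Spp1, GRCr8 chr14:5619805-5620054, minus strand: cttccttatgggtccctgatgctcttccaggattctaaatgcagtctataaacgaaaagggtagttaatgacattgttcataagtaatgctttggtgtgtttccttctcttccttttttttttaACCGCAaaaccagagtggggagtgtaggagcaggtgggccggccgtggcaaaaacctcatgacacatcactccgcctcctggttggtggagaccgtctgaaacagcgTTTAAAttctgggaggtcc

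The ACCGCA match lay 126 to 121 bases before the start, and the same letters were found on either strand in 5.02% of 33465 rat promoter windows of this length. TTTAAA lay 19 to 14 bases before the start and was found in 12.3% of the windows. TATAAA matched once, 204 to 199 bases before the start, and occurred in 12.9% of the windows. The E-box letters CANNTG, bound by basic helix-loop-helix factors, matched once, 96 to 91 bases before the start, and occurred in 65.5% of the windows. Both strands were searched for each motif, and these matches did not overlap one another. Other motifs had 0 matches in these 250 bases. Of these, the letters TGANTCA, the consensus of AP-1, were found in 6.34% of the windows. The other Runx core searched, ACCACA, was found in 14.5% of the windows. The letters CCAAT, bound by NF-Y, were found in 34.0%. The GC box, searched as CCGCCC and bound by Sp1, was found in 30.5%. These are matches of letters only. The RefSeq gene record extends farther upstream than this start, so the window belongs to 1 of the annotated starts.

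Spp1 was measured from many reads in every library. The PEL libraries held 4489, 8941 and 2670 Spp1 reads in replicates 1, 2 and 3, and the control libraries held 170, 149 and 212. Library totals were 16055170 to 17144108 assigned reads after PEL and 13756297 to 16746441 in controls, so depth differed little beside the change in Spp1 reads. Spp1 took 0.0273%, 0.0557% and 0.0156% of the assigned reads in PEL replicates 1, 2 and 3, and between 0.000935% and 0.00127% in the controls.

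TMM-scaled CPM, used from here on, are the reads of a row relative to the effective size of its library. Spp1 stood at 278 CPM in PEL replicate 1, with a 95% exact Poisson interval of 270 to 287. It stood at 548 CPM (537 to 560) in PEL replicate 2. In PEL replicate 3 it stood at 157 CPM (151 to 163). All 3 intervals are apart from each other, and replicate 2 was the highest and replicate 3 the lowest. The intervals reflect the counting of reads alone, and PCR can copy 1 molecule into several reads.

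The controls stood at 12.3 CPM (10.55 to 14.3) in replicate 1, 9.31 CPM (7.87 to 10.9) in replicate 2 and 12.6 CPM (10.9 to 14.4) in replicate 3. Spp1 reads were thus present in the median eminence without PEL. Replicate 2 was the lowest control: replicate 3 carried 1.35 times its Spp1 CPM (95% exact conditional interval for counting error, 1.09 to 1.68), and replicates 1 and 3 differed by 1.02-fold (0.829 to 1.25).

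Spp1 averaged 328 ± 200.4 CPM after PEL and 11.4 ± 1.82 CPM in controls (SD, n = 3 each). The ratio of the means was 28.8, and the fitted log2 fold change, PEL over control, was 4.85 (SE 0.47). On the log2 scale the ratio of the geometric means was 25.5, lower because PEL replicate 2 weighs less there. The groups did not overlap: the lowest PEL library was 12.5-fold above the highest control library. All 3 PEL libraries lay above all 3 controls in 16.3% of the 17125 rows tested. In edgeR's quasi-likelihood fit over all rows, with p adjusted by Benjamini-Hochberg and a threshold of 0.05, 5.29% of rows were called in either direction, 4.22% were called higher, and 0.911% were called higher and at least 4-fold. Spp1 is in each of these sets. Because it was chosen for its rise in these same libraries, its place there is no separate test of that rise. The sets depend on single libraries: leaving out 1 library gave 161 to 1402 rows called higher, against 722 with all 6, with the lowest number without control replicate 1 and the highest without PEL replicate 3.

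**Figure D1:**
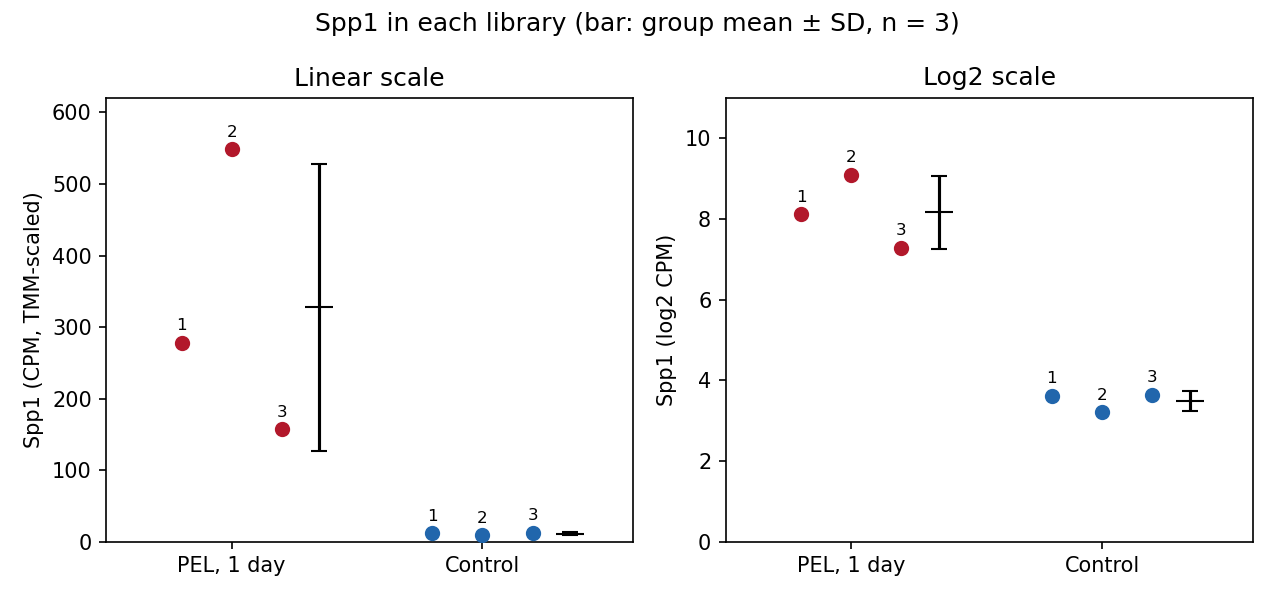
Spp1 in each library as TMM-scaled CPM (left, linear axis) and log2 CPM (right). Points are libraries, numbered by replicate, and the black bars are the group mean ± SD (n = 3 each). The PEL libraries sit at 157 to 548 CPM and the controls at 9.31 to 12.6 CPM, and the spread is wider after PEL on both scales.

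Measured against the control mean, Spp1 was 24.4-fold higher in PEL replicate 1, 48.1-fold in replicate 2 and 13.8-fold in replicate 3. Replicate 2 thus carried 1.97 times the Spp1 CPM of replicate 1 (interval 1.90 to 2.04) and 3.49 times that of replicate 3 (3.34 to 3.65). Replicate 1 carried 1.77 times that of replicate 3 (1.69 to 1.86). Each PEL library thus lay above the control mean, by folds that differed between libraries. With this many reads the intervals are narrow, and they do not cover the variation between samples.

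The size of the fold depended most on PEL replicate 2. Without that library the log2 fold change was 4.26, a 19.2-fold difference. It was 5.18, or 36.3-fold, without PEL replicate 3 and 4.95 without PEL replicate 1. Leaving out 1 control library gave values between 4.72 and 4.94.

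The spread between PEL libraries was wide even for a gene with so many reads. The coefficient of variation of Spp1 was 61.1% after PEL and 15.9% in controls. Among 1059 other rows whose PEL mean lay within 2-fold of that of Spp1, the median coefficient of variation after PEL was 8.28%, the quartiles were 5.48% and 12.3%, and 2 rows had a larger value than Spp1. Among 4378 other rows whose control mean lay within 2-fold of that of Spp1, the median coefficient of variation in controls was 9.47%, the quartiles were 5.66% and 14.2%, and 20.2% of rows exceeded Spp1. Beside rows of like level, the spread of Spp1 thus lay above the upper quartile in both groups, and near the top after PEL. Those rows were matched on level alone, whether or not they rose after PEL.

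The order of the PEL libraries was shared with many rising rows. Of the 156 rows called at least 4-fold higher, Spp1 included, 113 (72.4%) were highest in replicate 2, next in replicate 1 and lowest in replicate 3. That order was found in 60.0% of all 722 rows called higher and in 20.3% of all tested rows. The ratio of replicate 2 to replicate 3 had a median of 1.96 over the 156 rows, with quartiles of 1.43 and 2.74, and 24 rows had a ratio above the 3.49 of Spp1. Of its gain over the control mean in replicate 2, Spp1 reached 0.497 in replicate 1 and 0.271 in replicate 3, where the medians of the 156 rows were 0.692 and 0.445. Over all genes, PEL replicate 3 was the PEL library closest to the controls. Across 17125 rows, which are not independent replicates, log2(CPM + 1) of PEL replicate 3 correlated at 0.983 to 0.984 with the 3 control libraries, against 0.974 to 0.975 for PEL replicate 1 and 0.963 to 0.965 for PEL replicate 2. It correlated at 0.984 with PEL replicate 1 and 0.978 with PEL replicate 2, and the controls correlated with each other at 0.989 to 0.991. What set this order was not tested.

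**Figure D2:**
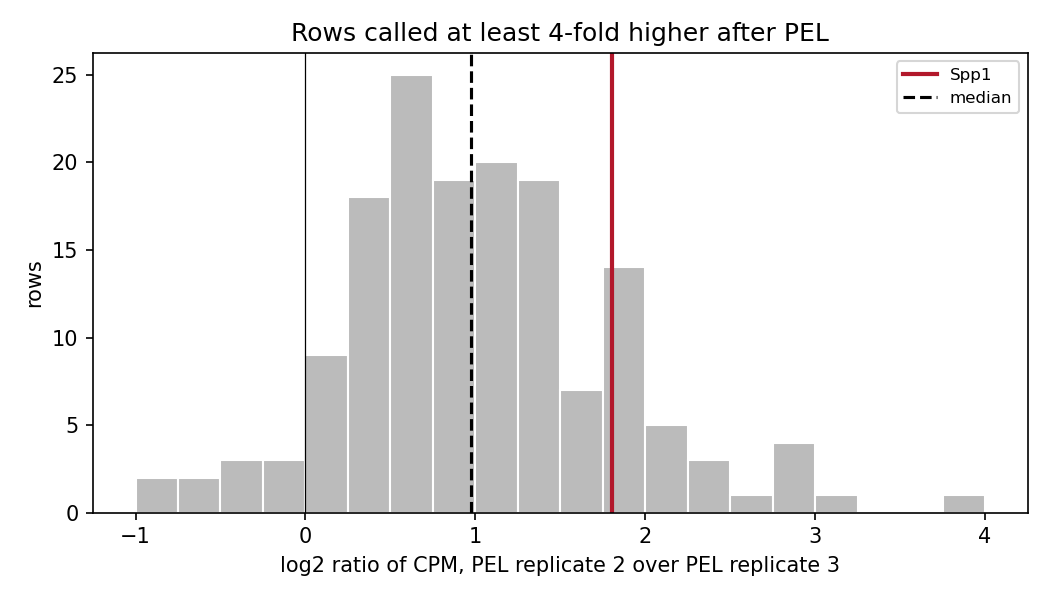
Histogram of the log2 ratio of CPM in PEL replicate 2 over PEL replicate 3 (x) for the 156 rows called at least 4-fold higher after PEL (y, number of rows). The dashed line is the median, a ratio of 1.96, and the red line is Spp1, a ratio of 3.49, to the right of most rows.

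Rows with a control CPM like that of Spp1 had smaller fitted rises, which largely follows from the choice of Spp1 for a large rise. Within 2-fold of the control mean of Spp1, from 5.70 to 22.8 CPM, the median log2 fold change of the 4378 other rows was -0.0094. In that range 3.45% of the rows were called higher, 23 rows (0.525%) had an estimate of at least 4-fold higher, and 2 of at least 16-fold. The farthest of them had a log2 fold change of 4.33. That row stood at 211, 309 and 89.9 CPM in PEL replicates 1, 2 and 3, and at 11.02, 9.68 and 9.66 CPM in the controls. It was singled out after its values were seen and is not named. It had the same order of PEL libraries as Spp1, with a lower value than Spp1 in each. Its coefficient of variation after PEL was 54.0%, against 61.1% for Spp1.

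**Figure D3:**
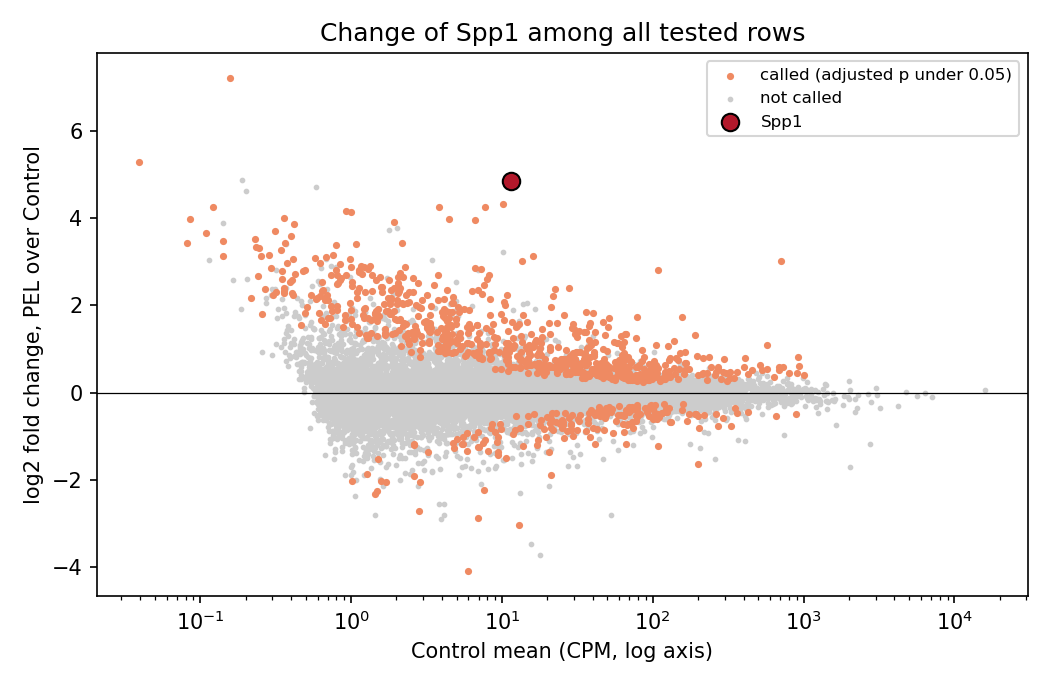
Log2 fold change, PEL over control (y), against the control mean in CPM on a log axis (x) for the 17125 tested rows. Orange points are rows called at an adjusted p under 0.05 and grey points the others. Spp1, the large red point, has a log2 fold change of 4.85 at a control mean of 11.4 CPM, and the rows above it have control means under 1 CPM.

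Over all tested rows, 3 had a larger log2 fold change than Spp1, each with a control mean of 0.189 CPM or less and a PEL mean of 23.6 CPM or less. Among the 12548 Ensembl rows that averaged 5 CPM or more over the 6 libraries, 1 did. That row, just above Spp1 in the order, had a log2 fold change of 7.22, with means of 23.6 CPM after PEL and 0.157 CPM in controls. The row just below Spp1 had 4.71, with means of 15.7 CPM after PEL and 0.582 CPM in controls. The rows just above and just below Spp1 thus rested on control levels far below its own. The row second below it had 4.33, with means of 203 CPM after PEL and 10.1 CPM in controls, a control level near that of Spp1. Each library was also taken as log2(CPM + 1) against the control mean, which understates the change of low genes. Of the 12548 Ensembl rows, 0 moved farther than Spp1 in PEL replicate 1, 0 in replicate 2 and 2 in replicate 3. These places in the order also largely follow from the choice of Spp1 for its rise.

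Spp1 gained 317 CPM, the difference between its mean after PEL and in controls. The 722 rows called higher gained 28626 CPM in all, so Spp1 made up 1.11% of that gain, and 9 rows gained more. This place by gain also largely follows from the choice of Spp1, and the set of 722 rows depends on single libraries.

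The rows most like Spp1 were sought over the 6 libraries among 12547 other Ensembl rows averaging 5 CPM or more, by Pearson's r of log2(CPM + 1). This r is a measure of likeness, given without a test. All 6 points share the same 2 groups, and so most of r reflects which rows differ between groups. In all, 67 rows had an r of at least 0.99, and 572 of at least 0.95, and the median was -0.0350.

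The highest r, 0.999, belonged to ENSRNOG00000024650. It stood at 8.43, 11.96 and 6.70 CPM in PEL replicates 1, 2 and 3, and at 2.18, 2.00 and 2.31 CPM in the controls. Its log2 fold change was 2.06, so it shared the shape of the Spp1 profile at a smaller size. Next, also at 0.999, came ENSRNOG00000050748, at 68.9, 72.7 and 66.3 CPM in PEL replicates 1, 2 and 3 and at 56.7, 55.3 and 57.1 CPM in the controls. Its log2 fold change was 0.30. In both of these rows the lowest control was replicate 2, as for Spp1, which picking rows by r favours.

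The opposite profile was closest in ENSRNOG00000007972, with an r of -0.998. It averaged 35.4 ± 1.48 CPM after PEL and 44.3 ± 0.675 CPM in controls (SD, n = 3 each). Its log2 fold change was -0.32. ENSRNOG00000002592, with an r of -0.994, averaged 23.9 ± 2.41 CPM after PEL and 42.7 ± 1.501 CPM in controls (SD, n = 3 each). Its log2 fold change was -0.84. Both were highest, among PEL libraries, in replicate 3, where Spp1 was lowest, which picking rows by a low r favours. The table pairs none of these 4 identifiers with a symbol.

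Likeness in shape was not likeness in size, because r takes no account of the size of a change. The 10 rows with the highest r, none below 0.996, had log2 fold changes from 0.30 to 7.22. All 10 had the same order of PEL libraries as Spp1, which picking rows by r over these libraries favours. Ranked instead by the distance between their log2 changes and those of Spp1 in the 3 PEL libraries, 1 of these 10 was among the 10 nearest. In that ranking 4 rows lay within a root mean square distance of 1 log2 unit of Spp1. Few near rows, and so a small overlap, largely follow from the choice of Spp1 for a large rise.

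**Figure D4:**
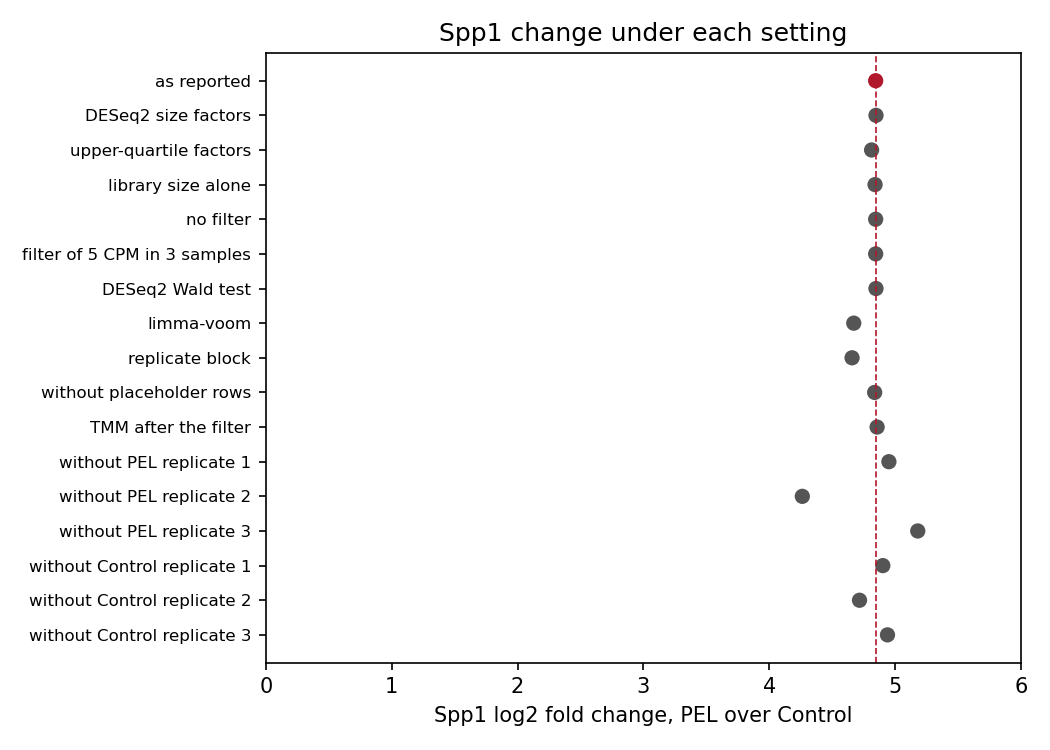
Spp1 log2 fold change, PEL over control (x), as reported (red) and under each of 16 other settings (y). Scaling, filters and tools moved it little, and leaving out PEL replicate 2 (4.26) or PEL replicate 3 (5.18) moved it most.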

How the data were processed

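The values deposited by the authors are raw read counts, whole numbers with no normalization, in 1 column per sample. HISAT2 2.0.5, featureCounts 1.5.0-p3 and DESeq2 1.16.1 are named, per the submitters' processing notes. No source used here gives the genome build, annotation or strand setting, and reads of overlapping or antisense genes cannot be separated. Of 34510 rows, 32883 carry Ensembl identifiers and 1627 placeholder identifiers; 0 matched the RefSeq table (GRCr8, 47357 rows). The gene lists by symbol fixed for this work were therefore not applied, and genes like Spp1 were named by r, 2 at each end.

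TMM factors were computed over all rows. Rows were filtered by filterByExpr (minimum count 10; 17125 kept) and fitted with edgeR 4.0.16 in R 4.3.3 (quasi-likelihood, group as the only term, all 6 samples), after a test on simulated data. The SE was taken from the fold change and its F statistic (absolute log2 value over root F). Alternatives used limma 3.58.1 and DESeq2 1.42.0. Spp1 and all lists were chosen with earlier results of these data known. Spread between samples may in part be technical.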

Additional observations from a re-analysis of the deposited data

How the results depend on the processing

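The log2 fold change of Spp1 stayed between 4.26 and 5.18 over 16 alternatives, less than 1 SD of the PEL libraries on the log2 scale (0.903) from the reported 4.85; since the groups do not overlap, its sign could hardly turn. TMM after the filter, chosen after seeing the data, gave 4.86. The number of rows called, 906 as reported, was 1636 with the DESeq2 Wald test and 173 to 2085 when 1 sample was left out: it was 252, 691 and 2085 with PEL replicates 1, 2 and 3 left out in turn, and 173, 187 and 246 with control replicates 1, 2 and 3 left out. The cause was not tested. A replicate block on the shared numbers gave 545 called rows, and the log2 fold change of Spp1 was 4.66. The deviations of same-numbered samples from their group means correlated at 0.0041, -0.0823 and -0.0519, and 1 of 3 PEL samples correlated best with its own number. Of the 10 rows most like Spp1, 9 were kept with a pseudocount of 0.5 CPM and 1 with the distance measure. With 3 libraries a group and a 3.49-fold spread after PEL, the fold of Spp1 is known only roughly. Because Spp1 was chosen for its rise in these same libraries, that fold may also be overstated, and its SE does not cover this.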
